A study of Mus musculus with 15 samples.

Results

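Lysosomes are the acidic compartments in which cells break down proteins, glycans and lipids. A proton pump acidifies their interior, hydrolases carry out the breakdown, membrane proteins line them and export the products, and transcription factors of the MiT/TFE family, among them Tfeb and Mitf, are known to switch on many of their genes. Phagocytes such as macrophages, and osteoclasts, are known for large numbers of lysosomes. The 35 lysosome genes described here were given as a list of names: 10 proteases, 8 hydrolases of glycans and sulfates, 6 proteins of lipid handling, 6 membrane proteins and channels, 2 subunits of the proton pump, and 3 further genes, namely Tfeb, Mitf and the progranulin gene Grn. They were taken by exact match of the gene name, and each name matched 1 record of 53689 in the first and 1 of 53618 in the second of 2 tables of RNA-seq read counts.

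The libraries came from mouse small cell lung cancer lines that, per the labels, were taken from tissue and grown in advanced RPMI medium with glutamax and 1% serum. The study asked how loss of Stat3 changes these tumour cells, and how cells from the liver differ from cells from the lung. The first table holds 4 lung lines labelled Rb1-/-:Trp53-/-:MYC (RPM; CMV_426, CMV_427, CMV_428 and CMV_429) and 3 lung lines with STAT3-/- in addition (RPMS; CMV_228, CMV_231 and CMV_252). In the second table are 4 lung lines of the RPMS genotype (CMV_232 besides the same CMV_228, CMV_231 and CMV_252) and 4 RPMS lines from liver metastases (CMV_273, CMV_341, CMV_343 and CMV_344). All groups thus share the loss of Rb1 and Trp53 and the MYC allele, and only the first table holds lines whose label names no loss of Stat3. The labels do not say how the alleles were induced, whether a line is a clone, or whether lines came from separate animals, so p-values measure the spread between these lines. In cultured lines that may hold several cell types, fewer cells of a type and less RNA per cell cannot be told apart.

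Promoter sequences are shown first, because the factors encoded by Tfeb and Mitf are known to bind short palindromes around CACGTG. RefSeq promoter windows (build GRCm38.p6, 250 bases before to 50 bases after a start site) were matched by symbol for 30 of the 35 genes, with 38 windows in all. CACGTG, which reads the same on both strands, was present in 10 of these 38 windows (26.3%) and in 7.15% of 32851 windows of all genes. The longer TCACGTGA, which contains CACGTG and is also its own reverse complement, was present in 6 of the 38 (15.8%) and in 0.974% of all windows. In 117 windows of the other lysosome genes described further on, with Lamp3 left out, the shares were 26.5% and 13.7%. These are matches of letters and were not tested as binding sites. The stretches below are 30 bases each, 5′ to 3′ on the gene's strand, with TCACGTGA in capitals. They come from a subunit of the proton pump, a membrane protein, an ion channel, a protease and a glycan hydrolase.
Cln3 (chr7:126583340-126583369, minus strand): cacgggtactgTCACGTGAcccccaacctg
Ctsd (chr7:142387908-142387937, minus strand): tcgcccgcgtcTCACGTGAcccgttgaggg
Mcoln1 (chr8:3500462-3500491, plus strand): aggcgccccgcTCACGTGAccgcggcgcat
Atp6v1a (chr16:44139373-44139402, minus strand): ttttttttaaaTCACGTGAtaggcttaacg
Gla (chrX:134601215-134601244, minus strand): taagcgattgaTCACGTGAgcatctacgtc
Gla (chrX:134601182-134601211, minus strand): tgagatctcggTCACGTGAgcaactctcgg

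The word begins 122 bases before the start site in Cln3, 99 before it in Ctsd, 46 in Mcoln1, 132 in Atp6v1a, and 195 for the nearer of 2 copies in Gla. Ctsa held 2 copies as well. The 6 genes with TCACGTGA differed widely in the comparison of RPMS with RPM lung lines given below: the log2 fold change was -5.41 for Ctsd, -4.17 for Ctsa, -3.94 for Gla, -1.83 for Cln3, -1.64 for Atp6v1a and -0.92 for Mcoln1.

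Levels are given as CPM, read counts relative to the size of the library, after scaling of library sizes with edgeR's TMM factors, separately for each table. The targeted gene Stat3 stood at 179, 195, 159.6 and 209 CPM in the RPM lines, in the order of their numbers, and at 16.3, 19.0 and 7.83 CPM in the RPMS lines (log2 fold change -3.69, SE 0.35, adjusted p = 0.00176; edgeR's quasi-likelihood F-test, p-values adjusted by the Benjamini-Hochberg method over all 17654 genes tested). Total counts ran from 25344949 to 31345631 in the first table and from 9453715 to 18451248 in the second. The groups of the first table also differed in markers of cell types. A summed list of 18 macrophage markers stood at 20338, 13056, 3344 and 6959 CPM in the RPM lines and at 5.22, 10.4 and 125 CPM in the RPMS lines. Of these markers, 16 of the 17 tested were lower in RPMS, and 12, among them Adgre1, Itgam, Ptprc, Cd14 and Msr1, had 0 counts in every RPMS library. Summed neuroendocrine markers (15 genes), which mark most small cell lung cancers, went the other way, with 29.9 to 91.9 CPM in RPM and 4932, 4834 and 1287 CPM in RPMS. Sums for fibroblasts (11 genes) were 23.3 to 728 against 7.16 to 17.0 CPM, for alveolar and airway epithelium (11) 124 to 1342 against 91.2 to 156, for endothelium (7) 18.3 to 342 against 0.737 to 14.6, for osteoclasts (5) 32.5 to 67.6 against 0.332 to 4.15, for other leukocytes (10) 0.0793 to 3.63 against 0.0952 to 0.212, and for hepatocytes (7) 0 to 4.53 against 0 to 0.154. Some of these sums rested mostly on 1 gene. Nfatc1 alone held 66.6, 32.2, 31.8 and 43.9 CPM of the osteoclast sums in the RPM lines. Calcr, of the same list, went the other way, with 3.47 CPM in CMV_228 and at most 0.0749 CPM in RPM. Kdr held 331 of the 342 CPM for endothelium in CMV_428. Dcn held 634 of the 728 CPM for fibroblasts in CMV_429. Of 9 fibroblast markers tested, 6 fell and 1, Thy1, rose (log2 fold change 6.33, SE 1.11, adjusted p = 0.00755, edgeR). Thy1 stood at 3.10, 3.58 and 8.46 CPM in the RPMS lines, where no RPM line exceeded 0.157 CPM. Pdgfra, with 2.86, 1.68 and 8.22 CPM in the RPMS lines, did not pass the threshold. Abca3 held 141, 120 and 54.8 CPM of the epithelial sums in the RPMS lines. The lines are labelled lung epithelium, whereas macrophage markers were counted in all 4 RPM libraries. In the second table the lung library of CMV_252 stood apart from the other RPMS libraries by its low neuroendocrine sum, and member counts, medians and named genes of that table are given with and without it. Whether the libraries of CMV_252 in both tables are the same cells cannot be told from the data used here.

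Lysosome genes were lower in the RPMS than in the RPM lung lines in nearly the whole list. Of the 35 genes, all of which were tested, 30 fell at an adjusted p under 0.05 (edgeR), whereas 15.7% of all tested genes did so. None of the 35 rose by edgeR, DESeq2 or limma-voom, against 14.9% of all tested genes by edgeR, and none was higher at an unadjusted p under 0.05. The median log2 fold change was -3.48, against -0.01 over all tested genes, and was the same with Atp6v0d2, which had 0 counts in RPMS, set at its bound. For 34 of the 35, every RPMS library lay below every RPM library, as it did for 21.9% of all tested genes. The 35 genes, like the lists further on, were chosen with earlier results of these data known. Set beside the shares of all tested genes, their counts and medians are therefore a description and not a test. Hexa, Ctsz, Neu1, Mcoln1 and Arsb were the 5 that did not pass the threshold. Shares of the 35 genes together were taken of the TMM-scaled library size, which differs from the raw count total. They were 5.23%, 3.56%, 1.76% and 1.92% in CMV_426, CMV_427, CMV_428 and CMV_429. In CMV_228, CMV_231 and CMV_252 they were 0.277%, 0.273% and 0.202%.

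**Figure D1:**
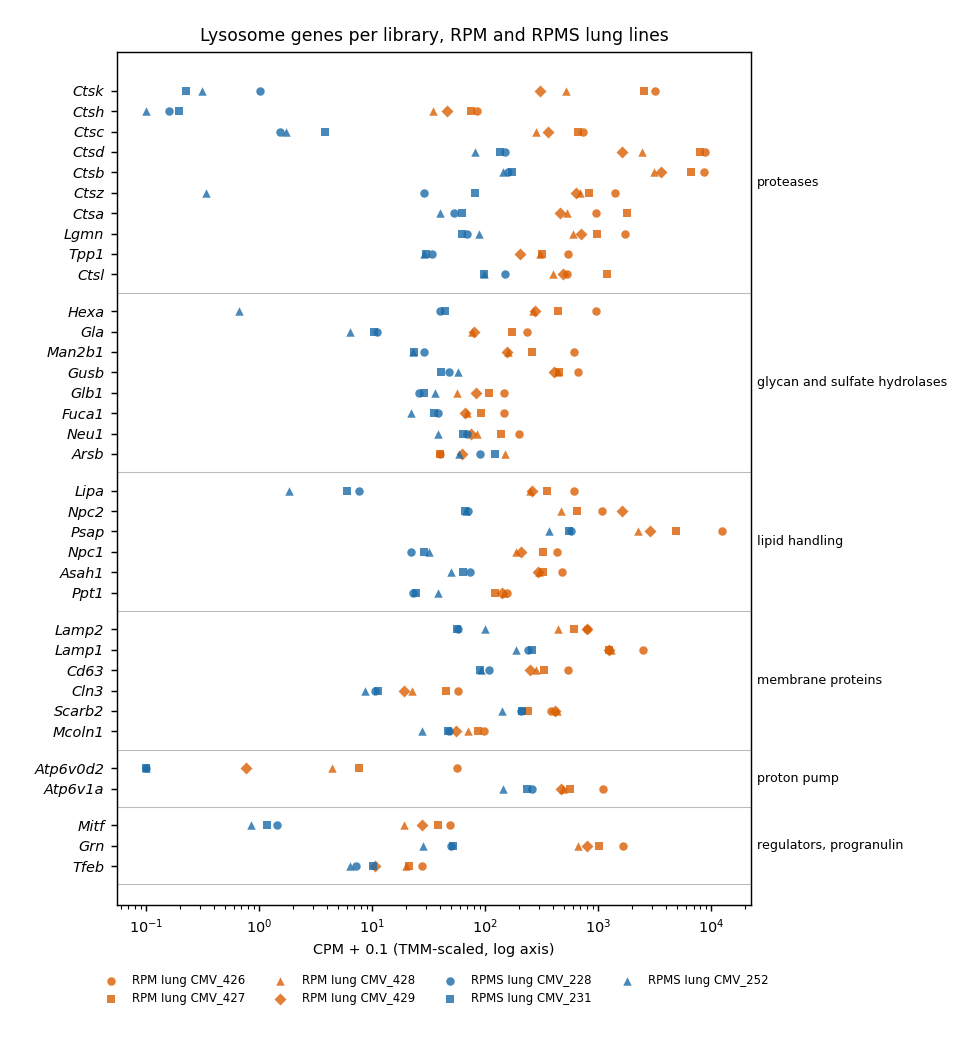
Level of each of the 35 lysosome genes in each library of the first table, as TMM-scaled CPM plus 0.1 on a log axis, with genes grouped by role and 1 marker shape per line (orange RPM, blue RPMS). The orange and blue points are apart for 34 genes; Arsb is the gene in which they overlap.

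Of the 10 proteases, 9 fell in RPMS, with a median log2 fold change of -4.86. Ctsk (chr3:95499256-95509362), a cysteine protease known for collagen breakdown by osteoclasts, stood at 3169.7, 2569.7, 524 and 306 CPM in the RPM lines. In the RPMS lines it stood at 0.921, 0.127 and 0.212 CPM (log2 fold change -11.92, SE 1.57, adjusted p = 0.00335, edgeR). Every RPM line was therefore far above every RPMS line, and CMV_428 and CMV_429 were well below CMV_426 and CMV_427; without CMV_228 the log2 fold change was -13.20. Ctsh (chr9:90054152-90076089), an aminopeptidase of the same family, had 84.9, 75.8, 34.8 and 46.3 CPM in RPM and 0.0614, 0.0952 and 0 CPM in RPMS, where 5 reads were counted in all (log2 fold change -10.07, SE 0.88, adjusted p = 0.00161; -10.75 without CMV_231). Ctsb (chr14:63122462-63145923), an abundant cysteine protease, had 8709, 6622, 3110.1 and 3624 CPM in RPM and 159, 174 and 145 CPM in RPMS (log2 fold change -5.12, SE 0.49, adjusted p = 0.00173). Its 3 RPMS values lay close together, while the RPM values differed up to 2.80-fold, CMV_426 being the highest.

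Ctsl (chr13:64359337-64370890), a cysteine endopeptidase, had the smallest change of the proteases. It stood at 536, 1201, 397 and 488 CPM in RPM and 151, 98.3 and 98.2 CPM in RPMS (log2 fold change -2.50, SE 0.46, adjusted p = 0.00868, edgeR), and CMV_427 was the highest RPM line rather than CMV_426. Between these extremes lay Ctsc, a dipeptidyl peptidase that activates granule proteases (mean 511 to 2.26 CPM between RPM and RPMS, -7.82 on the log2 scale). The aspartic protease Ctsd went from 5224 to 123 CPM (-5.41) and Ctsa, a carboxypeptidase that also protects glycosidases, from 938 to 52.0 CPM (-4.17). The asparaginyl endopeptidase Lgmn went from 1004 to 73.1 CPM (-3.78) and the tripeptidyl peptidase Tpp1 from 342 to 30.7 CPM (-3.48). All 5 fell. The carboxypeptidase Ctsz did not pass the threshold (log2 fold change -4.61, SE 1.51, adjusted p = 0.0564, edgeR): its RPM values were 1428, 836, 687 and 638 CPM and its RPMS values 29.0, 81.1 and 0.242 CPM. The groups did not overlap, but CMV_252 was near 0 while the other RPMS lines were not, and without CMV_252 the adjusted p was 0.00839. DESeq2 and limma-voom gave adjusted p values of 0.000484 and 0.0167.

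Among the 8 hydrolases of glycans and sulfates, 5 fell, 3 did not pass the threshold, and the median log2 fold change was -2.53. Gla (chrX:134588149-134601125), the alpha-galactosidase deficient in Fabry disease, stood at 237, 174, 76.5 and 79.8 CPM in RPM and 11.1, 10.3 and 6.32 CPM in RPMS (log2 fold change -3.94, SE 0.54, adjusted p = 0.0038, edgeR). Gusb (chr5:129989011-130003049), beta-glucuronidase, stood at 671, 456, 444 and 406 CPM and 47.5, 40.4 and 57.2 CPM (log2 fold change -3.35, SE 0.26, adjusted p = 0.00135). The groups were apart for both genes, and the RPMS lines lay within 1.76-fold of each other for Gla and 1.41-fold for Gusb. The alpha-mannosidase Man2b1 also fell (-3.57; -2.92 without CMV_426). Falls of Glb1, beta-galactosidase (-1.72, adjusted p = 0.0124), and of Fuca1, an alpha-fucosidase (-1.56, adjusted p = 0.0187), were no longer called by edgeR without CMV_228 (adjusted p = 0.0557 and 0.0512) or without CMV_231 (0.0518 and 0.06).

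Hexa (chr9:59539540-59565109), the alpha subunit of beta-hexosaminidase whose loss causes Tay-Sachs disease, stood at 953, 445, 265 and 279 CPM in RPM and 40.0, 44.0 and 0.574 CPM in RPMS (log2 fold change -4.10, SE 1.32, adjusted p = 0.0537, edgeR). As with Ctsz, CMV_252 stood far below the other RPMS lines, and without it the adjusted p was 0.0138. DESeq2 and limma-voom gave 0.000652 and 0.0229. The sialidase Neu1 had a log2 fold change of -1.14 (adjusted p = 0.0739 by edgeR, 0.0347 by DESeq2). Arsb (chr13:93771630-93943016), the arylsulfatase that removes sulfate from dermatan sulfate, was the one gene with a positive value (log2 fold change 0.31, SE 0.53, adjusted p = 0.698, edgeR). Its levels were 39.9, 40.2, 150.4 and 63.2 CPM in RPM and 90.8, 123 and 59.1 CPM in RPMS, and the groups overlapped, with the highest value in CMV_428.

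All 6 genes of lipid handling fell, with a median log2 fold change of -3.44. Lipa (chr19:34492318-34527474), the acid lipase that splits cholesterol esters and triglycerides, stood at 618, 351, 249 and 260.1 CPM in RPM and 7.62, 5.96 and 1.75 CPM in RPMS (log2 fold change -6.17, SE 0.71, adjusted p = 0.00253, edgeR). Npc2 (chr12:84754562-84773152), which hands cholesterol to the exporter Npc1, stood at 1094, 657, 475 and 1635 CPM and 70.9, 66.0 and 68.0 CPM (log2 fold change -3.82, SE 0.48, adjusted p = 0.00306). The RPMS values of Npc2 were nearly equal, and its highest RPM value was in CMV_429. Psap (chr10:60277627-60302597), the precursor of the saposins that present sphingolipids to their hydrolases, had 12492, 4918, 2250.4 and 2889 CPM in RPM and 576, 552 and 367 CPM in RPMS (log2 fold change -3.50, SE 0.70, adjusted p = 0.0113). CMV_426 stood apart with the highest Psap level of any library, yet the lowest RPM line was still above all RPMS lines; without CMV_426 the log2 fold change of Psap was -2.74. Ppt1 (chr4:122836242-122859175), a thioesterase that removes palmitate from proteins, had the smallest change of the group, with 156, 122, 149 and 141 CPM in RPM and 23.2, 24.7 and 38.6 CPM in RPMS (log2 fold change -2.30, SE 0.24, adjusted p = 0.0021). The cholesterol exporter Npc1 (-3.39) and the acid ceramidase Asah1 (-2.49) fell as well.

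Among the membrane proteins 5 of 6 fell, with a median log2 fold change of -1.84. Lamp1 (chr8:13159161-13175338) and Lamp2 (chrX:38401357-38456454) encode abundant proteins of the lysosomal membrane. Lamp2 stood at 795, 609.6, 439 and 799 CPM in RPM and 57.9, 56.1 and 101 CPM in RPMS (log2 fold change -3.21, SE 0.35, adjusted p = 0.00221, edgeR), and within RPMS CMV_252 was the highest line. Lamp1 stood at 2505, 1246, 1293 and 1263 CPM and 241, 259.6 and 186 CPM (log2 fold change -2.78, SE 0.34, adjusted p = 0.00289), with 3 nearly equal RPM lines and CMV_426 above them. The tetraspanin Cd63 fell (-1.85). For Cln3, a membrane protein lost in juvenile Batten disease (-1.83, adjusted p = 0.023), the call by edgeR was lost without CMV_427, CMV_228, CMV_231 or CMV_252 (adjusted p = 0.0555, 0.0789, 0.0719 and 0.0525). For Scarb2, the receptor that carries glucocerebrosidase to the lysosome (-0.98, adjusted p = 0.0316), it was lost without any one line except CMV_427 (adjusted p = 0.0572 to 0.0821). Mcoln1 (chr8:3500457-3515232), a calcium channel, stood at 98.2, 86.9, 71.0 and 55.1 CPM in RPM and 48.3, 47.3 and 27.6 CPM in RPMS. The groups lay side by side without overlap (log2 fold change -0.92, SE 0.30, adjusted p = 0.0533 by edgeR; 0.0188 by DESeq2, 0.0467 by limma-voom and 0.0426 by edgeR without CMV_429).

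Both pump subunits fell. Atp6v1a (chr16:44085402-44139705), the catalytic subunit, stood at 1118, 564, 494 and 475 CPM in RPM and 259.6, 234 and 144 CPM in RPMS (log2 fold change -1.64, SE 0.39, adjusted p = 0.021, edgeR), but without CMV_228 or CMV_231 it was not called (adjusted p = 0.0555 and 0.0669). Atp6v0d2 (chr4:19876841-19922605), an isoform known from osteoclasts and macrophages, stood at 56.5, 7.63, 4.37 and 0.674 CPM in RPM and had 0 counts in all RPMS libraries. Against a floor of 3 counts per library it was at least 187-fold lower in RPMS (adjusted p = 0.0315, edgeR), and without CMV_426, which carries the RPM mean, at least 45.6-fold lower. The RPM lines differed 83.9-fold among themselves, the widest spread of the 35 genes, where the median gene differed 2.61-fold between its lowest and highest RPM line. The call was lost without CMV_427, CMV_228, CMV_231 or CMV_252 (adjusted p = 0.0536 to 0.0751).

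The regulators and Grn fell as well. Mitf (chr6:97807052-98021349), the MiT/TFE factor also known from melanocytes and osteoclasts, stood at 48.6, 38.5, 19.2 and 27.8 CPM in RPM and 1.35, 1.08 and 0.755 CPM in RPMS (log2 fold change -4.97, SE 0.47, adjusted p = 0.00173, edgeR). Grn (chr11:102430315-102437048), whose product progranulin is secreted and also delivered to lysosomes, stood at 1681, 1013, 664 and 804 CPM and 50.1, 52.0 and 28.0 CPM (log2 fold change -4.58, SE 0.46, adjusted p = 0.00188). Both were far apart between the groups. Tfeb (chr17:47737030-47792419), the best known regulator of lysosome genes, stood at 27.5, 21.2, 19.8 and 10.5 CPM and 7.16, 10.1 and 6.29 CPM (log2 fold change -1.33, SE 0.39, adjusted p = 0.0405). Its groups almost touched, between CMV_429 and CMV_231, and the call was lost without any one line except CMV_429 (adjusted p = 0.0722 to 0.134) and without the filter on low counts (0.0644).

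The order of the genes within a group also differed between RPM and RPMS. Levels of different genes were compared per kilobase of merged exon length, from the GENCODE M21 annotation of GRCm38. In RPM, Ctsd led with 2222 CPM per kb on average, ahead of Psap (2055), Ctsk (1086) and Ctsb (912). In RPMS, Psap led with 182 CPM per kb, followed by Lamp1 (85.7), Ctsd (52.4), Atp6v1a (35.2), Lgmn (31.5) and Scarb2 (29.8). Ctsk moved from place 3 to place 32 of 35, while Scarb2 moved from 20 to 6 and Arsb from 30 to 13. These orders were not tested.

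The RPM lines differed strongly among themselves. CMV_426 held the highest value of 29 of the 35 genes, and CMV_428 or CMV_429 the lowest of 15 and 16. Summed over the 35 genes, the RPM lines stood at 52345, 35613, 17619 and 19238 CPM and the RPMS lines at 2766, 2733 and 2019 CPM. Ranked by this sum, the RPM lines ran CMV_426, CMV_427, CMV_429 and CMV_428, which is also their order by macrophage markers given above. In RPMS, the line with the highest macrophage marker sum, CMV_252, of whose 125 CPM Lyz2 made up 124 CPM, had the lowest lysosome sum and the lowest value of 24 of the 35 genes. The part of the macrophage markers in the fall of the lysosome genes was not tested; in the RPMS libraries the lysosome genes were measured with 12 of the 18 markers at 0 counts. Without CMV_426, the highest RPM line, 28 of the 35 genes were lower, with a median log2 fold change of -3.11.

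**Figure D2:**
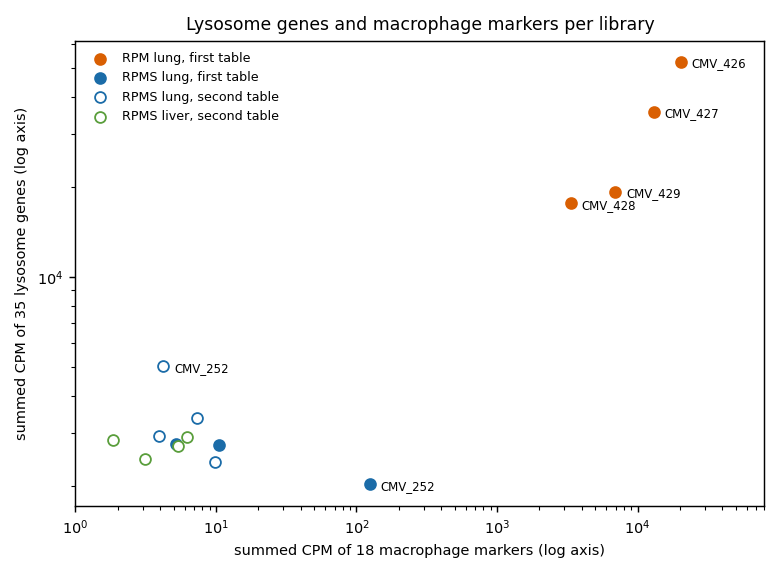
Summed CPM of the 35 lysosome genes (vertical, log axis) against summed CPM of 18 macrophage markers (horizontal, log axis), 1 point per library of both tables. RPM lines lie at the upper right, with lysosome sums from 17619 to 52345 CPM, and all RPMS lines at the lower left, from 2019 to 5014 CPM; tables were scaled separately.

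Further lysosome genes outside the 35 were read from the same fit in 5 lists. Over all tested genes, 15.7% fell and 14.9% rose in this fit. Of 34 tested further hydrolases and their cofactors, 28 fell and none rose (median log2 fold change -2.31). Ctss, a cysteine protease of antigen presentation, had 2 counts in RPMS against 86169 in RPM, a ratio of 2.45e-05 (95% counting interval 2.96e-06 to 8.84e-05). Ctse, an aspartic protease, stood at 8.23, 11.9, 0 and 29.8 CPM in RPM and had 0 counts in RPMS, so that CMV_428 was as low as the RPMS lines, and it did not pass the threshold (adjusted p = 0.0503). Hyal2, a hyaluronidase, had the smallest difference (-0.20, adjusted p = 0.717). Of 31 further membrane proteins, 20 fell and none rose (median -1.16). Slc11a1, the metal transporter of phagosomes, was at least 1294-fold lower (adjusted p = 0.00203) and the channel Mcoln2 at least 274-fold lower (adjusted p = 0.00203), both with 0 counts in RPMS. Laptm5, a membrane protein of leukocytes, went from 406 to 0.134 CPM (-11.52, adjusted p = 0.00132), and Mfsd8 had the smallest difference (-0.31, adjusted p = 0.371).

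The other 3 lists had medians nearer 0. Of 18 tested further pump subunits, 8 fell and none rose (median -0.78). Tcirg1, the subunit a3 known from osteoclasts, had means of 346 and 7.57 CPM (log2 fold change -5.51, SE 0.81, adjusted p = 0.00448, edgeR), while Atp6v0e2 (19.9 to 111 CPM, 2.48, adjusted p = 0.0514), Atp6v1g2 (1.56, adjusted p = 0.0612) and Atp6v1e1 (-0.23, adjusted p = 0.472) did not pass. Of 18 regulators and nutrient sensors, 6 fell and 1 rose (median -0.35). Tfec, the MiT/TFE factor known from macrophages, had 0 counts in RPMS and was at least 283-fold lower (adjusted p = 0.00387). Rragb, a GTPase that signals amino acids at the lysosome, was higher, with means of 7.83 and 56.3 CPM in RPM and RPMS (log2 fold change 2.85, SE 0.65, adjusted p = 0.0174). Ppargc1a (2.25, adjusted p = 0.228) and Zkscan3 (0.01, adjusted p = 0.966), a repressor of lysosome genes, did not pass. Of 24 genes of sorting and delivery, 13 fell and 1 rose (median -0.74). Plekhm1 (-2.83, adjusted p = 0.00523), Nagpa (-2.80, adjusted p = 0.00268), which uncovers the mannose 6-phosphate tag, and Lyst (-1.97, adjusted p = 0.00312) fell, and Arl8a had the smallest difference (-0.03, adjusted p = 0.958). The gene that rose, named after its value was seen, was Gnptg, a subunit of the enzyme that makes the tag, with means of 23.5 and 69.3 CPM (log2 fold change 1.56, SE 0.19, adjusted p = 0.0027).

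**Figure D3:**
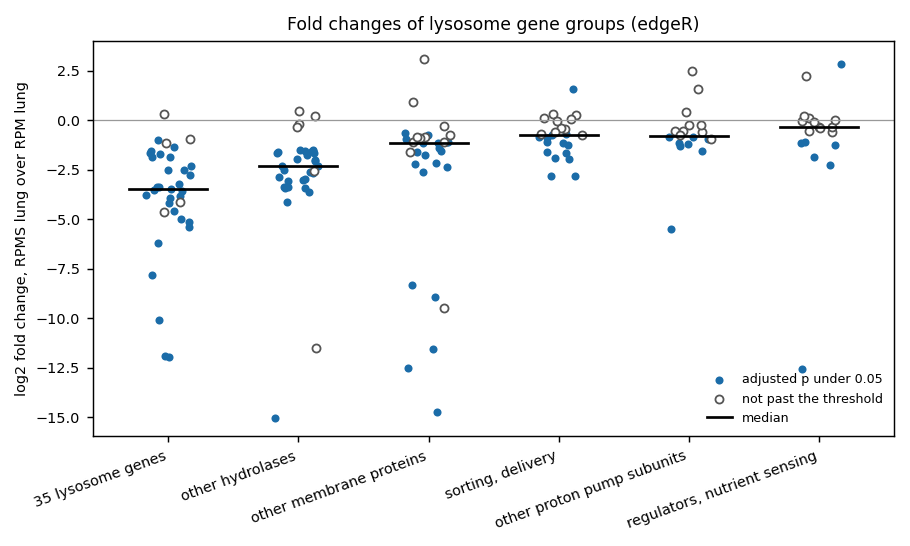
Log2 fold change of RPMS against RPM lung lines for the 35 lysosome genes and 5 further lysosome lists (1 point per tested gene, filled where adjusted p is under 0.05 by edgeR, line at the median). The medians run from -3.48 for the 35 genes to -0.35 for regulators and nutrient sensors; points below -9 include genes with 0 counts in RPMS, whose fitted values depend on the prior count.

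Lysosome genes of the liver and lung RPMS lines did not differ past the threshold. Of the 35 genes, 32 were tested in the second table, and none was called by edgeR, DESeq2 or limma-voom. Over all 14441 tested genes, 0% were called by edgeR, the lowest adjusted p being 0.0857, although the counts at an unadjusted p under 0.05 were 650 of all genes and 1 of the 32. The log2 fold changes of liver against lung were negative for 24 and positive for 8 of the 32, with a median of -0.27 (all genes -0.02) and a range from -1.28 for Ctsc to 1.09 for Hexa. In none of the 32 did the groups lie apart, as they did in 2.56% of all tested genes. By role, the median was -0.30 for 8 tested proteases, -0.13 for 8 glycan and sulfate hydrolases, -0.45 for 6 genes of lipid handling, -0.33 for 6 membrane proteins and 0.13 for the 3 regulators and Grn; Atp6v1a, the tested pump subunit, had -0.16.

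The library of CMV_252 in the second table held many of the highest lung values. Among the lung lines it was the highest in 22 of the 35 genes. The summed level of the 35 was 2934, 3362, 2403 and 5014 CPM in CMV_228, CMV_231, CMV_232 and CMV_252, and 2851, 2451, 2899 and 2719.6 CPM in the liver lines CMV_273, CMV_341, CMV_343 and CMV_344. Its neuroendocrine marker sum was 184 CPM, where the other lung lines had 3913 to 5095 and the liver lines 3319.5 to 7301 CPM. Macrophage marker sums of the second table ran from 1.84 to 9.79 CPM, with 4.23 CPM in CMV_252. Other leukocyte markers summed to 19.4 CPM in CMV_252, nearly all of it S100a8. The other lung lines had 0.0572 to 0.543 CPM and the liver lines 0.163 to 3.60 CPM. Osteoclast markers summed to 11.5 CPM in CMV_252 and 0.286 to 2.33 CPM in the other lung lines. In the liver lines CMV_273, CMV_341, CMV_343 and CMV_344 the osteoclast sum was 34.5, 4.28, 21.9 and 2.43 CPM. The part of these markers in the lysosome levels of CMV_252 was not tested. Without CMV_252 the differences were negative for 21 and positive for 11 of the 32 genes, with a median of -0.10, and still none was called. The role medians were then -0.10 for proteases, -0.13 for glycan and sulfate hydrolases, 0.02 for lipid handling, -0.14 for membrane proteins and 0.30 for the regulators and Grn, and Atp6v1a had -0.20.

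The 4 genes with the smallest p in this comparison came from 4 roles. Asah1, the acid ceramidase, stood at 66.2, 56.9, 92.3 and 104 CPM in the lung and 43.7, 66.6, 51.2 and 51.2 CPM in the liver lines (log2 fold change -0.59, SE 0.25, adjusted p = 0.945, unadjusted p = 0.0415, edgeR). Ctsb stood at 135, 124, 105 and 406 CPM and 68.6, 54.9, 124 and 132 CPM (log2 fold change -1.02, SE 0.50, adjusted p = 0.945, unadjusted p = 0.0715). In both, CMV_252 was the highest library and the groups overlapped; without it the log2 fold change was -0.42 for Asah1 and -0.34 for Ctsb. Neu1 stood at 81.4, 71.3, 97.0 and 76.3 CPM in the lung and 43.9, 61.9, 66.7 and 73.1 CPM in the liver lines (log2 fold change -0.41, SE 0.21, adjusted p = 0.945, unadjusted p = 0.0815). Mitf was the one of the 4 with a positive difference, at 1.64, 1.25, 1.09 and 2.61 CPM and 5.21, 1.76, 2.13 and 3.99 CPM (log2 fold change 0.99, SE 0.51, adjusted p = 0.945, unadjusted p = 0.0852), CMV_273 and CMV_344 being the highest. Without CMV_252 the log2 fold change was -0.43 for Neu1 and 1.30 for Mitf. The 3 genes too low to be tested were Ctsk, Ctsh and Atp6v0d2, 3 of those with the largest falls in RPMS lung lines. Ctsk had 5, 5, 8 and 27 counts in the lung and 4, 11, 7 and 5 in the liver lines. Ctsh had 0 counts in every lung line, which allows up to 0.23 CPM in the shallowest of them, and 1, 29, 1 and 6 counts in the liver lines. Atp6v0d2 had 0, 0, 0 and 1 and 0, 0, 0 and 3 counts. Ctsh was thus counted in each liver line and in no lung line of the second table, at levels near the floor in CMV_273 and CMV_343, while the first table held 2, 3 and 0 counts of it in CMV_228, CMV_231 and CMV_252. CMV_341, with the most Ctsh counts, also had a fibroblast marker sum of 136 CPM, where the other libraries of the table had 1.58 to 27.9 CPM. CMV_344, with the next most, had the fewest counts in total, with 30341 genes detected where the other libraries had 21658 to 24549, and its sum of other leukocyte markers was 3.60 CPM. The part of these features in the Ctsh counts was not tested.

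**Figure D4:**
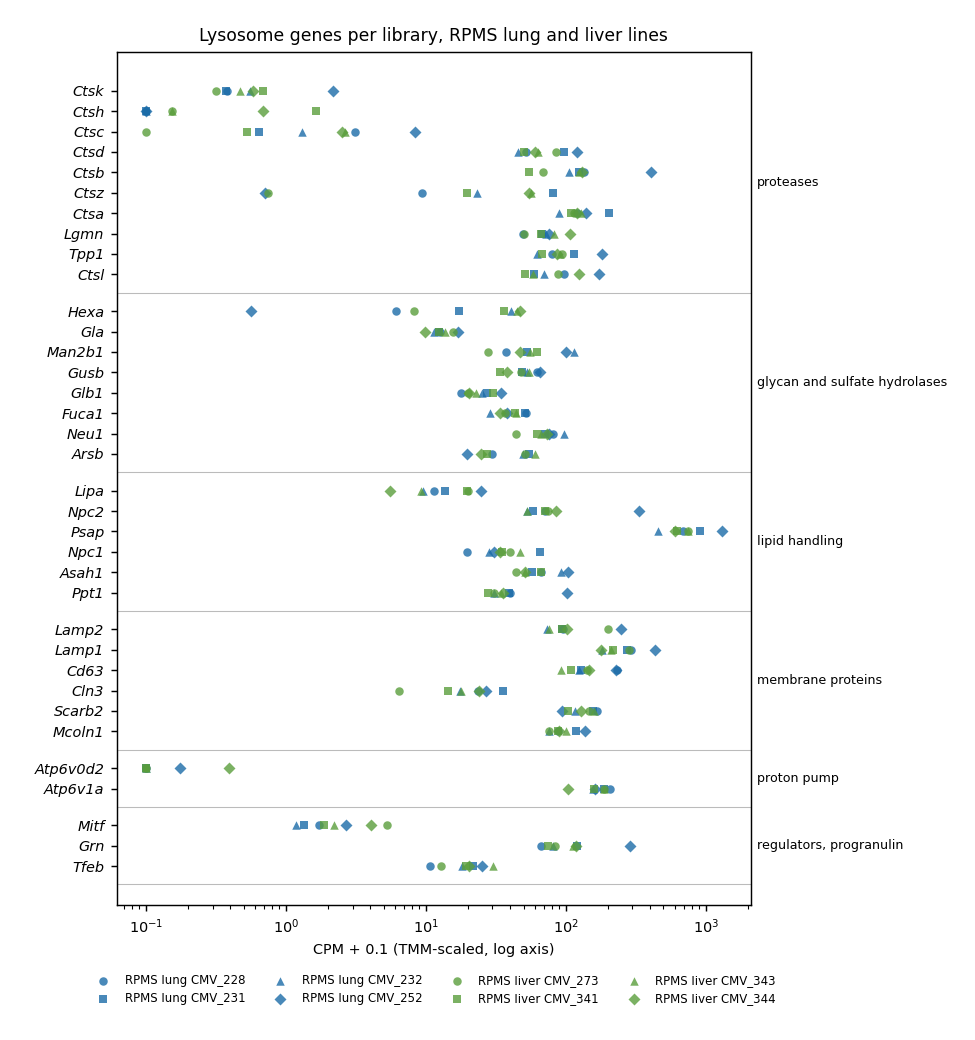
Level of each of the 35 lysosome genes in each library of the second table, as TMM-scaled CPM plus 0.1 on a log axis (blue RPMS lung, green RPMS liver, 1 marker shape per line). Blue and green points overlap for 34 genes, Ctsh being the exception; the blue diamond of CMV_252 is the highest lung value in 22 genes.

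The line numbers CMV_228, CMV_231 and CMV_252 appear in both tables, so that levels under the same number can be set side by side, without a test because the tables were scaled separately. For genes at 1 CPM or more in both, the median ratio of second to first table was 1.21 over 32 genes in CMV_228 and 1.20 over 31 in CMV_231. Single genes moved more: 5 were over 2-fold higher and 4 over 2-fold lower in CMV_228, and 9 and 2 in CMV_231. The ratios ran from 0.151 (Hexa) to 2.38 (Tpp1) in CMV_228 and from 0.392 (Hexa) to 3.83 (Tpp1) in CMV_231. In CMV_252 the median ratio was 2.47 over 29 genes. Of these, 18 were over 2-fold higher in the second table, up to 14.2-fold for Lipa, and 1 was over 2-fold lower. By their sum, the lysosome genes of CMV_252 thus stood lowest among the RPMS lines in the first table and highest among the lung lines in the second. Its library in the second table also had a lower neuroendocrine marker sum, with 1287 CPM in the first table and 184 CPM in the second.

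Hexa and Ctsz were near 0 in CMV_252 in both tables. Hexa stood at 0.574 CPM in the first and 0.461 CPM in the second, and Ctsz at 0.242 and 0.615 CPM. The other lung lines of the second table, CMV_228, CMV_231 and CMV_232, held 6.04, 17.3 and 40.5 CPM of Hexa and 9.37, 81.6 and 23.1 CPM of Ctsz. Among the liver lines, CMV_273 was also near 0 for Ctsz, with 0.651 CPM where the other liver lines held 19.5, 56.8 and 54.8 CPM, and its Hexa level of 8.08 CPM was the lowest of the liver lines. Low values of these 2 genes in CMV_252 thus recur in a second library of the same line number. Arsb, by contrast, was lower in the second table in all 3 lines, at 29.9, 54.8 and 19.6 CPM against 90.8, 123 and 59.1 CPM in the first.

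**Figure D5:**
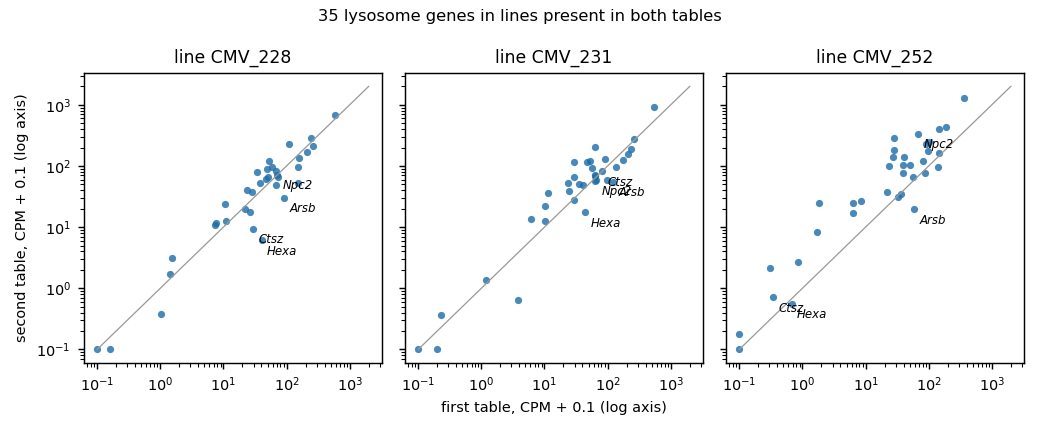
Level of the 35 lysosome genes in the second table (vertical) against the first table (horizontal), as CPM plus 0.1 on log axes, 1 panel for each line present in both; the line marks equal levels. Most points of CMV_252 lie above the line (24 of 29 genes at 1 CPM or more in both), while Hexa and Ctsz sit near the lower left.

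Some of the 35 genes share exon sequence with a neighbour in the annotation: 13 overlap another annotated gene and 11 overlap a protein-coding one, such as Ctsb with Fdft1, Lamp1 with Grtp1, Hexa with Tmem202 and Ctsz with Nelfcd. The library kit keeps strand, but the strand setting of the counting is not given in the sources used here, so reads of such pairs may not be told apart. For Ctsz, the overlapping Nelfcd stood at 85.5 CPM in CMV_252 of the first table, where Ctsz itself was at 0.242 CPM.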

How the data were processed

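RNA-seq libraries of 15 samples were given as 2 count tables. Per the labels' protocols, total RNA was extracted with a kit and libraries were made with a stranded TruSeq kit. The authors deposited whole-number read counts per gene without normalization. Per the submitters' processing notes, HISAT2, StringTie and GRCm38 were used; their roles and versions, and whether counting used strand, are not given in the sources used here. Each sample was matched to 1 column by its title.

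The counts were tested with edgeR 4.0.16 in R 4.3.3 (default expression filter, TMM factors, two-sided quasi-likelihood test, Benjamini-Hochberg adjustment at 0.05), within each table and over all genes. SEs were taken from the F statistic. Records without a name, 0.0569% to 0.0799% of a library's counts in the second table, were left out, and records sharing a name (36 and 215) were kept apart. No pair of libraries was a copy (mean chi-square per gene 49.1 to 846 over 21 pairs and 72.7 to 418 over 28). A floor of 3 counts equals 0.0907 to 0.12 CPM in the first table and 0.16 to 0.292 CPM in the second; floors and intervals cover counting error only.

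The members and lists were chosen with earlier results of these data known. Per-library values are given, in each role, for the members with the largest 2 and the smallest changes and the highest mean level, and in the second table for the 4 smallest p; of other lists the 3 largest changes and the smallest are named. A gene that this rule names is not reported here. Hexa and Ctsz across tables, and Ctsz per library, were added after their values were seen. Alternatives were DESeq2 1.42.0, limma-voom (limma 3.58.1), no filter, a minimum of 10 counts in 3 libraries, factors by relative log expression or the upper quartile, a threshold of 0.01 and leaving out each library. The edgeR test was checked on simulated counts of both tables: of 100 genes changed 4-fold and 100 changed 16-fold, it found 14 and 99 of 17654 genes in the first table, with 7 false calls, and 29 and 100 of 14441 in the second, with 3. Far more genes than were changed here were called in the first table itself, so these shares need not hold for it. How many changes of these sizes were missed in the data was not tested.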

Additional observations from a re-analysis of the deposited data

Results flagged for a closer look

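Each of the 35 genes and their sum was read in the 3 groups of 4, which gave 107 sets of 4 libraries. Ctsh was left out where it was 0 in all. In 11 sets, 1 library had a gap to the nearest other above Dixon's critical share of the range. Chance flags about 1 in 20 such sets if they are independent and normally spread. The genes share the same libraries, so the 11 cannot be set against that rate. Where all other libraries are at 0, any count is flagged, as for Atp6v0d2 in the second table. In the RPM lines, 4 genes were flagged, each for a high value in CMV_426. Asah1 stood at 480.6 CPM there, with 297.0 to 325.8 CPM in the other lines. Lamp1 stood at 2505 CPM, with 1246 to 1293 CPM in the others, and Atp6v1a at 1118 CPM, with 475 to 564 CPM. Atp6v0d2 stood at 56.5 CPM, with 0.674 to 7.63 CPM in the others.

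In the second table, 6 genes were flagged for a high value in the lung line CMV_252. Ctsb stood at 406 CPM with 105.2 to 134.6 CPM in the other lung lines, and Npc2 at 336 CPM with 52.5 to 71.1 CPM. Lamp2 stood at 249 CPM with 73.1 to 96.0 CPM in the others, and Ppt1 at 103 CPM with 30.6 to 39.9 CPM. Ctsk stood at 2.07 CPM with 0.271 to 0.458 CPM, and Atp6v0d2 at 0.0768 CPM, which is 1 count, with 0 in the others. In the liver group, Atp6v0d2 stood at 0.292 CPM in CMV_344, which is 3 counts, with 0 in the others.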

How the results depend on the processing

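The count of 30 lysosome genes lower in RPMS lung was 34 with DESeq2, 33 with limma-voom, 29 without the filter, 30 with each other scaling or filter, 22 at a threshold of 0.01, and 23 to 30 without each library; none was higher and none reversed in any of these. The lowest count, 23, was without CMV_228 or without CMV_231. By every alternative other than the threshold of 0.01, 23 of the 30 stayed past the threshold. Over all genes, 5403 were called in the first table, 2103 at a threshold of 0.01, and 2896 to 7076 without each library, where CMV_228 gave the lowest count and CMV_231 gave 3103. In the second table no gene was called, but DESeq2 called 52, none of them among the 35, and edgeR without the filter called 2; without each library in turn the count was 0. Of the 35 genes, none was called in the second table by any alternative. In the first table the calls were 2764 lower and 2639 higher, with upper-quartile factors 2580 and 2914. No paired analysis was possible because the groups compared within a table share no line numbers. Depth limits Ctsk, Ctsh and Atp6v0d2 in RPMS lines, which had few counts or none.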

Other observations

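Genes near Hexa and Ctsz in the annotation were read in CMV_252 and the other RPMS lung lines. They were chosen after the values of Hexa and Ctsz were seen, as the nearest protein-coding genes tested in both tables. Celf6, close to Hexa, stood at 0.0768 CPM in CMV_252 of the second table with 14.5 to 36.2 CPM in the other lung lines, and at 14.1 CPM in the first table with 40.4 to 47.0 CPM in the others. On the other side of Hexa, Bbs4 stood at 10.8 CPM in CMV_252 of the second table with 10.7 to 14.1 CPM in the others, and at 17.5 CPM in the first with 21.2 to 22.7 CPM. Parp6, on the same side as Celf6, stood at 45.3 CPM in the second table with 116 to 183 CPM in the others and at 67.6 CPM in the first with 131 to 142 CPM, and Arih1, on the same side as Bbs4, at 168 CPM with 76.9 to 151 CPM and at 139.7 CPM with 83.6 to 93.7 CPM. Close to Ctsz, Nelfcd stood at 103 CPM in CMV_252 of the second table with 141 to 405 CPM in the others, and Atp5e stood at 53.9 CPM with 73.1 to 85.8 CPM. In the first table these were 85.5 CPM with 194 to 209 CPM and 104 CPM with 125 to 152 CPM. Gnas stood at 59.5 CPM in CMV_252 of the second table with 241 to 444 CPM in the others, and at 1069 CPM in the first with 3478 to 3571 CPM. Prelid3b was below the others in the second table, with 72.0 CPM against 163 to 215 CPM, and above them in the first, with 156 CPM against 126 to 130.2 CPM.

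Among the genes named in the genotypes, Myc had means of 20.8 and 1.82 CPM in the RPM and RPMS lines of the first table (log2 fold change -3.52, SE 0.76, adjusted p = 0.0146, edgeR). Myc stood at 0.676, 1.21 and 3.57 CPM in CMV_228, CMV_231 and CMV_252 of the first table. Under the same line numbers it stood at 17.3, 31.0 and 75.7 CPM in the second. Trp53 was also higher in the second table under each of these numbers, and Gnas was lower. The tables were scaled separately and the second holds no RPM line, so whether Myc is low in RPMS was not tested there. The labels do not say whether the MYC allele is a mouse or a human gene. Rb1 (0.94, adjusted p = 0.241) and Trp53 (-0.82, adjusted p = 0.571) did not pass the threshold in the same fit.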
